A study of Homo sapiens with 6 samples.

Results

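The genes described here are the heat shock proteins, their DNAJ co-chaperones and the heat shock factors in MDA-MB-231 cells depleted of the splicing factor SAM68. Members were chosen by gene symbol alone: the HSPA, HSPB, HSP90AA1, HSP90AB1, HSPH1, HSPD1, HSPE1, HSF, DNAJA, DNAJB and DNAJC genes, without HSPA5, DNAJB9 and DNAJC3, which belong to the endoplasmic reticulum stress response. The expression table lists 74852 loci, of which 72 were members, and 61 of them had a mean of at least 10 normalized reads over the libraries and were tested. MDA-MB-231 is an established human breast cancer line of the triple-negative subtype. In both groups the cells were transfected with siRNA by lipofection in 2 rounds: the si-CTRL group (n = 3 libraries) received a non-targeting control and the si-SAM68 group (n = 3) a pool of 4 siRNAs against SAM68, the protein of the KHDRBS1 gene. The labels place the harvest 24 h after the second round. The methods of the study give a longer time, counted from a transfection whose round they do not name, and another medium. The methods describe a harvest in triplicate, and neither source says whether the 3 harvests were separate transfections made on different days, so that the p-values below measure the spread between these libraries, which may be partly technical, and a single cell line and a single siRNA pool limit what the groups stand for.

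Heat shock proteins are molecular chaperones, which bind unfolded or newly made proteins and prevent them from aggregating. HSP70 proteins take up client proteins that DNAJ proteins (also called HSP40) deliver through a J domain, exchange factors such as the HSP110 proteins release them, and HSP90 completes the folding of many kinases and hormone receptors. The stress-inducible genes of the family are switched on by heat shock factors, mainly HSF1, which bind to inverted repeats of the unit nGAAn in the promoter, and many tumour lines express them at a high level without heat.

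The sequences of these repeats are shown for the genes whose counts carry the comparison below, because they mark the members with the letters that heat shock factors bind. Each is a window of 30 bases of the RefSeq promoter (GRCh38.p14) in the orientation of the gene, with the repeat in capitals. The 2-unit form of the repeat is GAA, any 2 bases and TTC, or TTC, any 2 bases and GAA, and the 3-unit form adds any 2 bases and a further unit in alternation. The first 5 windows hold a 3-unit form, which in HSPD1 runs on for a further unit, and the last 4 hold a 2-unit form.
HSPA6 (chr1:161524457-161524486, plus strand): gcggaaaggTTCGCGAAAGTTCgcggcggc
HSP90AA1 (chr14:102087112-102087141, minus strand): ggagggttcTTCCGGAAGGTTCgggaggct
HSP90AB1 (chr6:44247769-44247798, plus strand): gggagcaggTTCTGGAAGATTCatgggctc
HSPA8 (chr11:123062171-123062200, minus strand): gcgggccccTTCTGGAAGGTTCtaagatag
HSPD1 (chr2:197500061-197500090, minus strand): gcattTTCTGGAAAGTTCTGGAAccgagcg
HSPA1A (chr6:31815426-31815455, plus strand): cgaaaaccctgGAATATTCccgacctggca
HSPA1B (chr6:31827622-31827651, plus strand): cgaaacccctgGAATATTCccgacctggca
DNAJB1 (chr19:14518426-14518455, minus strand): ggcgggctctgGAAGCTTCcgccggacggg
HSPB6 (chr19:35757207-35757236, minus strand): tggaaattgggGAATCTTCatgtcaccttc

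The values are DESeq2-normalized read counts per locus, made by the authors on the FAST DB annotation of hg19. The libraries held between 52625492 and 82568487 reads on loci. Among the libraries, 2 stood apart. A ribosomal RNA locus took 15.1% of the reads of si-SAM68 replicate 2 and at most 3.17% of those of any other library. In si-CTRL replicate 1 lay the highest value of 27.5% and the lowest of 28.3% of all loci tested (at most 19.1% and 17.3% in any other library), and it held the highest value of 24 of the 61 tested members and the lowest of 12. Results that change without either library are given with the value. KHDRBS1 itself fell from 15660, 14483 and 14737 normalized reads to 583, 602 and 670, to 4.13% of the control mean (log2 fold change -4.60, SE 0.0829, adjusted p = 2.1e-09, limma). Most markers of the line matched the label: VIM lay between 138300 and 173160 normalized reads and PGR was at 0 in every library. CDH1 reached at most 4.60 and ESR1 15.2, and the leukocyte and endothelial genes PTPRC and CDH5 at most 13.6 and 42.5. ERBB2, also listed as low in this subtype, did not match. It lay between 2412.9 and 3447 normalized reads, against 3138.1 to 4103.6 for EGFR, listed as present.

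Most chaperone genes moved little after SAM68 depletion, and the few that passed a test were mainly lower. At the thresholds of the study, an unadjusted p of at most 0.05 with a fold change of at least 1.5, 4 of the 61 tested members (6.56%) were called, against 7.67% of the 18849 loci tested. These calls come from the limma fit made here. The study's own list of regulated genes, which is shorter, was not used. DNAJC16, HSPA6 and HSPB6 were lower (3 members, 4.92%, against 4.83% of all loci), and DNAJC12 was higher (1 member, 1.64%, against 2.83%). At an adjusted p under 0.05 over all loci, 5 members (8.2%) were called against 10.7% of loci: DNAJC16, HSPA6, HSP90AA1 and HSPB6 were lower (6.56% of members, against 6.23% of loci) and DNAJC19 was higher (1.64%, against 4.47%). These shares lie near the background. The number called at the study's thresholds dropped to 2 without si-SAM68 replicate 1 or without si-SAM68 replicate 2. The number with an adjusted p under 0.05 was 1 without either of these, 2 without si-CTRL replicate 2, si-CTRL replicate 3 or si-SAM68 replicate 3, and 6 without si-CTRL replicate 1, while the share of all loci with an adjusted p under 0.05 ranged from 3.32% to 15.1% over the same fits.

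In direction, 36 of the 61 members (59%) had a log2 fold change below 0, against 49.1% of all loci, and the median was -0.04 against 0.01 for all loci. The 2 groups of libraries did not overlap for 24 members (39.3%, against 33.9% of loci), of which 18 were lower (29.5%, against 17.3%) and 6 higher (9.84%, against 16.6%). At an unadjusted p under 0.05 there were 17 members (27.9%, against 27% of loci), of which 13 members were lower (21.3%, against 14.1%) and 4 were higher (6.56%, against 12.8%). The sizes were small, since 48 members differed by a fold under 1.2, 9 by a fold of 1.2 to 1.5 and 4 by at least 1.5. Without si-CTRL replicate 1, 35 members were below 0 (57.4%, against 50% of loci), and the groups did not overlap for 20 that were lower (32.8%, against 23.2%) and 12 that were higher (19.7%, against 23.3%). Without si-SAM68 replicate 2, 33 were below 0 (54.1%, against 49.2%), with 18 lower (29.5%, against 20.4%) and 8 higher (13.1%, against 20.1%) free of overlap. For 51 members the whole 95% confidence interval of the change lay within a fold of 1.5 in either direction. In this bulk RNA, fewer cells expressing a gene and less RNA per cell cannot be told apart.

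**Figure D1:**
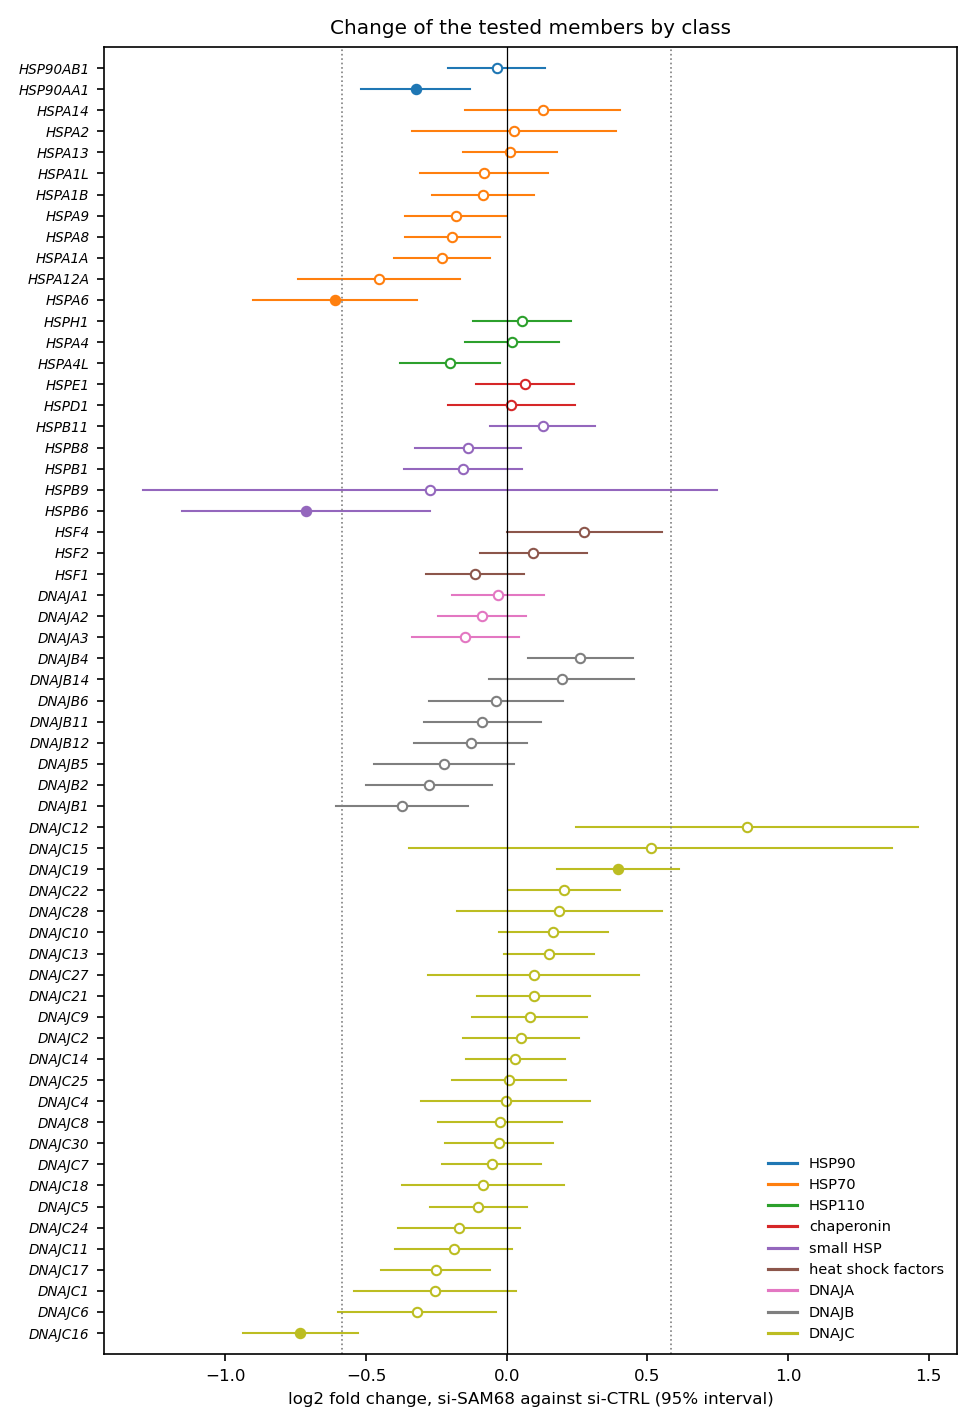
Log2 fold change of each of the 61 tested members, si-SAM68 against si-CTRL (x axis), with its 95% confidence interval, grouped and coloured by class. Filled points have an adjusted p under 0.05 and dotted lines mark a fold of 1.5. DNAJC16 and HSPB6 lie farthest to the left (-0.73 and -0.71), DNAJC12 farthest to the right (0.85), and most intervals lie between the dotted lines.

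The HSP90 genes are among the most abundant mRNAs of these cells, and the stress-inducible one was lower after depletion. HSP90AA1 encodes HSP90-alpha, the form that heat induces, and HSP90AB1 the constitutive HSP90-beta. HSP90AA1 (hg19 chr14:102547073-102606086) had 233499, 209268 and 218148 normalized reads in the si-CTRL libraries and 167499, 170750 and 189887 in the si-SAM68 libraries. All 3 si-SAM68 libraries lay below all 3 controls, at 79.9% of the control mean (log2 fold change -0.32, SE 0.0871, adjusted p = 0.0425). HSP90AB1 had 232883, 221149 and 225266 reads in controls and 219142, 216090 and 227213 after depletion. These groups overlapped (log2 fold change -0.04, 95% interval -0.21 to 0.14, adjusted p = 0.804). The call of HSP90AA1 was lost with the replicate number as a block (adjusted p = 0.0694), without a filter on low values (adjusted p = 0.131) and in every fit that left out a library other than si-CTRL replicate 1, with adjusted p from 0.0597 (si-CTRL replicate 2 left out) to 0.149 (si-SAM68 replicate 2 left out). The edgeR and DESeq2 tests kept it (adjusted p = 0.0255 and 0.00445).

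Since both HSP90 genes were counted in the same libraries, their ratio is free of the scaling between libraries. HSP90AA1 over HSP90AB1 was 1.003, 0.946 and 0.968 in controls and 0.764, 0.790 and 0.836 after SAM68 depletion. The mean was 0.972 ± 0.0284 (SD, n = 3) and 0.797 ± 0.0361 (SD, n = 3), with no overlap between the groups. The difference was -0.29 on the log2 scale (exact permutation test, two-sided, p = 0.1, or 0.3 after adjustment over 3 ratios). This test permuted the libraries without regard to their replicate numbers, and 3 against 3 libraries cannot give a p under 0.1. The ratio was lower in all 3 same-numbered pairs (paired exact permutation test, p = 0.25, the smallest that 3 pairs can give).

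**Figure D2:**
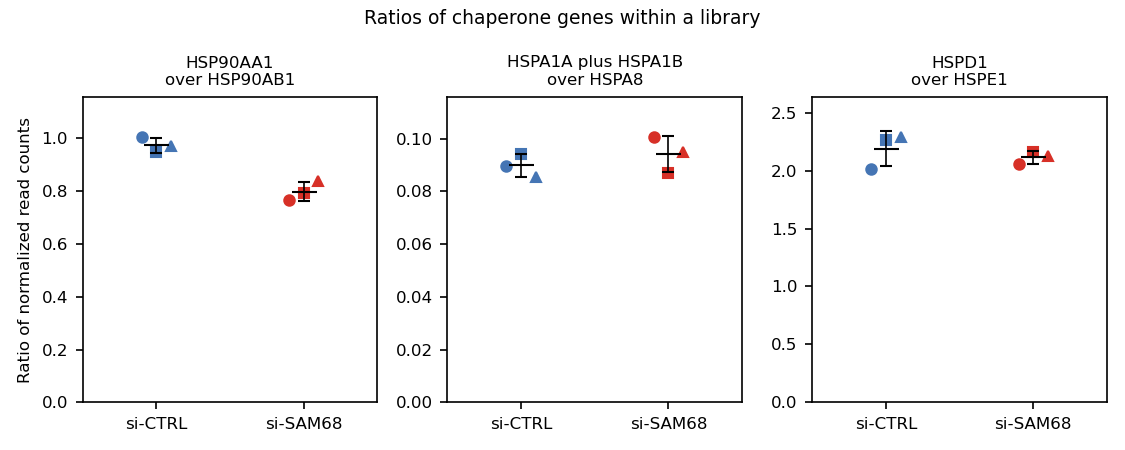
Ratio of normalized read counts of 2 chaperone genes within each library (y axis, from 0), for si-CTRL and si-SAM68 (x axis); point shapes mark replicates 1 to 3 and the bars the mean and SD of 3 libraries. The HSP90AA1 to HSP90AB1 ratio is lower in every si-SAM68 library (0.764 to 0.836) than in every control (0.946 to 1.003), while the groups overlap for the other ratios.

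Among the HSP70 genes, HSPA6 was lower and the abundant HSPA8 and HSPA1A had lower counts that did not pass adjustment. HSPA6 encodes a strictly stress-inducible HSP70 (HSP70B'), and its locus (hg19 chr1:161494330-161496685) had 367, 363 and 387 normalized reads in controls and 224, 224 and 287 after depletion. Every si-SAM68 library lay below every control, at 65.8% of the control mean (log2 fold change -0.61, SE 0.131, adjusted p = 0.0181). The adjusted p rose above the threshold without si-CTRL replicate 3 (0.0591), si-SAM68 replicate 1 (0.0702) or si-SAM68 replicate 2 (0.0785), and in the same 3 fits and under quantile normalization the fold change was under 1.5. HSPA6 shares near-identical sequence with its neighbour HSPA7, so that reads may have been assigned to the wrong gene of the pair. HSPA7 was listed with at most 3.02 reads in any library, so few reads of the pair were counted there.

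HSPA8, the constitutive cytosolic HSC70, had 186896, 176949 and 189592 reads in controls and 159515, 160301 and 164029 after depletion. The groups did not overlap, at 87.4% of the control mean, and the adjusted p missed the threshold (log2 fold change -0.19, SE 0.0759, adjusted p = 0.136). The inducible pair HSPA1A and HSPA1B encode nearly the same protein, so that their counts are uncertain. HSPA1A had 5389, 4892 and 5015 reads against 4488, 4131 and 4422, again without overlap (log2 fold change -0.23, SE 0.0764, adjusted p = 0.0854). HSPA1B had 11381, 11790 and 11167 against 11539, 9781 and 11130, with overlap (log2 fold change -0.08, SE 0.0812, adjusted p = 0.541). The sum of HSPA1A and HSPA1B over HSPA8 averaged 0.0898 ± 0.00446 in controls and 0.0940 ± 0.00688 after depletion (SD, n = 3 each; exact permutation p = 0.4, adjusted p = 0.5).

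Over the class, 7 of the 10 tested HSP70 genes had values below 0 (median log2 fold change -0.13), against 49.1% of all loci, and for 5 of them the groups did not overlap, against 17.3% of loci that were lower without overlap. The summed normalized counts of the HSP70 genes were 264300, 247694 and 259944 in controls and 225092, 224520 and 231477 after depletion, with HSPA8 the largest part. The sum of the 2 HSP90 genes went from 466381, 430417 and 443414 to 386641, 386840 and 417100. Each of these sums was lower in every si-SAM68 library than in every control. Further HSP70 genes, given after their values were seen, were HSPA12A, a distant relative of the family, with a log2 fold change of -0.45 (SE 0.129, adjusted p = 0.0512), and HSPA9, the mitochondrial mortalin, with -0.18 (SE 0.0806, adjusted p = 0.181).

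The HSP110 proteins, which help HSP70 exchange its nucleotide, and the mitochondrial chaperonin, a folding chamber built from HSPD1 with HSPE1 as its lid, showed no member past either call rule. HSPH1 had 36051, 32310 and 32885 normalized reads in controls and 33756, 34192 and 37074 after depletion (log2 fold change 0.05, 95% interval -0.12 to 0.23, adjusted p = 0.704). The other HSP110 genes, given after their values were seen, were HSPA4 with a log2 fold change of 0.02 (SE 0.075, adjusted p = 0.897; -0.02 under quantile normalization and -0.03 with si-SAM68 replicate 3 left out) and HSPA4L with -0.20 (SE 0.08, adjusted p = 0.14). HSPD1 had 39040, 47986 and 49922 against 43888, 45052 and 48904 (log2 fold change 0.02, 95% interval -0.21 to 0.24, adjusted p = 0.94). Its direction was not stable, since it was -0.02 under quantile normalization, -0.09 with si-CTRL replicate 1 left out and -0.03 with si-SAM68 replicate 3 left out. HSPE1 had 19357, 21234 and 21816 against 21342, 20842 and 23008 (log2 fold change 0.06, 95% interval -0.11 to 0.24, adjusted p = 0.644). HSPD1 and HSPE1 lie head to head and their loci overlap by 278 bases, and the HSPE1 locus is joined with MOB4. The HSPD1 to HSPE1 ratio averaged 2.19 ± 0.149 in controls and 2.12 ± 0.0535 after depletion (SD, n = 3 each; exact permutation p = 0.5, adjusted p = 0.5).

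Small heat shock proteins hold unfolded proteins without using ATP. HSPB6 (HSP20, known from muscle; hg19 chr19:36245469-36247930) had 245, 175 and 166 normalized reads in controls and 130, 93.8 and 132 after depletion. The groups did not overlap, and the mean fell to 60.6% of that of controls (log2 fold change -0.71, SE 0.198, adjusted p = 0.0471). The call was lost in each of the 6 fits that left out a library, with adjusted p from 0.0591 (si-CTRL replicate 3 left out) to 0.158 (si-SAM68 replicate 2 left out), without a filter on low values (0.0792) and under quantile normalization (0.067). Its fold change was under 1.5 when si-CTRL replicate 1 or si-SAM68 replicate 2 was left out (-0.54 and -0.55 on the log2 scale). HSPB1 (HSP27), the most abundant of the class, had 8915, 8979 and 9867 reads against 9465, 7643 and 7907, with overlap (log2 fold change -0.16, SE 0.0944, adjusted p = 0.323). HSPB8, which acts with BAG3 in the removal of misfolded proteins, had a log2 fold change of -0.14 (SE 0.0843, adjusted p = 0.321), and HSPB11, a component of intraflagellar transport, of 0.13 (SE 0.0832, adjusted p = 0.357); both were chosen after their values were seen.

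The transcription factors of the response were not called. HSF1 had 5758, 5393 and 5393 normalized reads in controls and 5422, 5135 and 4763 after depletion, with overlapping groups (log2 fold change -0.11, 95% interval -0.29 to 0.06, adjusted p = 0.389). HSF2, which can form trimers with HSF1, had 1476, 1585 and 1632 against 1621, 1616 and 1775 (log2 fold change 0.09, 95% interval -0.09 to 0.28, adjusted p = 0.511). HSF4, known from lens development and counted on a locus joined with FBXL8, had a log2 fold change of 0.28 (SE 0.124, adjusted p = 0.186) and was chosen after its values were seen. These are mRNA levels, whereas the activity of HSF1 is set mainly on the protein.

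**Figure D3:**
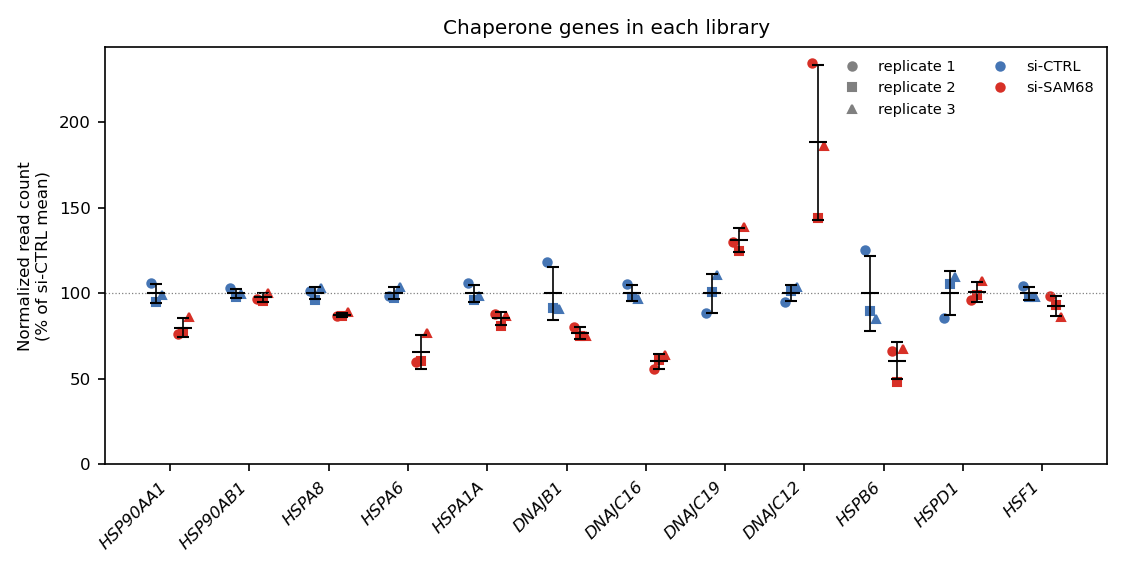
Normalized read count of 12 chaperone genes in each library, as a percentage of the gene's si-CTRL mean (y axis, from 0); blue points are si-CTRL and red points si-SAM68, shapes mark the replicate number, and bars the mean and SD of 3 libraries. DNAJC16, HSPA6, HSPB6 and HSP90AA1 lie lower in every si-SAM68 library, DNAJC19 and DNAJC12 higher, and HSP90AB1, HSPD1 and HSF1 overlap.

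DNAJA and DNAJB proteins are the general co-chaperones that bring clients to HSP70, and none of the 3 DNAJA and 8 DNAJB genes tested was called. DNAJA1, the most abundant of the DNAJA class, had 33722, 31707 and 33261 normalized reads in controls and 30920, 31580 and 34198 after depletion (log2 fold change -0.03, 95% interval -0.19 to 0.13, adjusted p = 0.831). DNAJB11, which serves the HSP70 of the endoplasmic reticulum, had 21637, 17111 and 18853 against 17168, 18315 and 18553 (log2 fold change -0.09, SE 0.0928, adjusted p = 0.593), and without si-CTRL replicate 1 the value was 0.0033. DNAJB1, the main heat-inducible HSP40, was chosen after its values were seen, because it lay at the threshold. It had 15004, 11629 and 11525 reads in controls and 10240, 9524 and 9535 after depletion, without overlap, at 76.8% of the control mean (log2 fold change -0.37, SE 0.105, adjusted p = 0.0511). It passed with the replicate block (adjusted p = 0.0375), in DESeq2 (0.00952) and with a pseudocount of 5 (0.0496). The same held at a minimum mean of 50 (0.0429) and under quantile normalization (0.0421). It did not pass in edgeR (0.0511), with TMM scaling (0.0533), with a pseudocount of 0.1 (0.0522) or without a filter on low values (0.0797). Without si-CTRL replicate 1, the highest control, the log2 fold change was smaller, at -0.25, and passed (adjusted p = 0.0205). With any other single library left out DNAJB1 did not pass. The adjusted p then ran from 0.0505 (si-CTRL replicate 2 left out) to 0.179 (si-SAM68 replicate 3 left out).

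Other DNAJB and DNAJA genes, also chosen after their values were seen, ran in both directions. DNAJB4 had 2193, 2144 and 2123 reads in controls and 2550, 2398 and 2811 after depletion, without overlap (log2 fold change 0.26, SE 0.0839, adjusted p = 0.0771). It passed in DESeq2 (adjusted p = 0.0409) and in the limma fit without si-CTRL replicate 1 (adjusted p = 0.0397). DNAJB2, a co-chaperone of neurons, had a log2 fold change of -0.28 (SE 0.101, adjusted p = 0.111), DNAJB6, which restrains protein aggregation, of -0.04 (SE 0.107, adjusted p = 0.857), DNAJA2 of -0.09 (SE 0.0704, adjusted p = 0.456) and the mitochondrial DNAJA3 of -0.15 (SE 0.0852, adjusted p = 0.298). For DNAJB6 the sign turned without si-CTRL replicate 1 (0.09).

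The DNAJC class, whose members share only the J domain and have specialised tasks, held both the decrease with the smallest p and the only members called higher. DNAJC16 encodes a membrane protein with a J domain and a thioredoxin-like domain. Its locus (hg19 chr1:15853308-15918872) had 1494, 1385 and 1372 normalized reads in controls and 787, 867 and 903 after depletion, so that the highest si-SAM68 library was far below the lowest control. The mean fell to 60.1% (log2 fold change -0.73, SE 0.0916, 95% interval -0.94 to -0.53, adjusted p = 0.00152). DNAJC16 had an adjusted p under 0.05 in all 15 alternative fits, with 0.0123 as the highest. Its locus overlaps AGMAT, listed with a mean of 4.05 reads, and a further locus with 17.9.

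DNAJC19 encodes the J protein of the motor that pulls precursor proteins into the mitochondrial matrix. It lies at hg19 chr3:180701500-180707562 and had 2196, 2511 and 2759 normalized reads in controls and 3229, 3109 and 3454 after depletion, all above the controls. The mean was 131% of that of controls (log2 fold change 0.40, SE 0.0972, adjusted p = 0.031). The call was lost without si-CTRL replicate 2 (adjusted p = 0.0602), si-SAM68 replicate 1 (0.0886), si-SAM68 replicate 2 (0.0795) or si-SAM68 replicate 3 (0.136). Its paralog DNAJC15, chosen after its values were seen, was expressed at a far lower level and varied among controls, with 52.5, 15.5 and 28.5 reads against 38.3, 43.2 and 42.4 (log2 fold change 0.51, SE 0.385, adjusted p = 0.428). Its value rested on single controls, since it was 0.09 without si-CTRL replicate 2 and 0.94 without si-CTRL replicate 1, where the unadjusted p was 0.0134 and it met the study's thresholds.

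DNAJC12, a co-chaperone of the aromatic amino acid hydroxylases, had the largest fold among the tested members at a low level. At hg19 chr10:69556423-69597937 it had 20, 21.3 and 21.9 normalized reads in controls and 49.4, 30.4 and 39.1 after depletion, without overlap (log2 fold change 0.85, SE 0.272, unadjusted p = 0.0107). It did not pass adjustment (adjusted p = 0.0747), and without si-SAM68 replicate 1 the unadjusted p was 0.0505. DNAJC9, a histone chaperone and the most abundant of the class, had 19922, 24145 and 24393 against 23782, 23213 and 25199 (log2 fold change 0.08, SE 0.0917, adjusted p = 0.609), and -0.01 without si-CTRL replicate 1; its locus overlaps CAMK2G and the antisense gene DNAJC9-AS1, so that reads may be shared.

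The DNAJC class as a whole was spread around 0, with 13 of the 25 tested above and 12 below, counting those described above, and a median of 0.01. Given after their values were seen, the lower ones included DNAJC17, which carries an RNA recognition motif, with a log2 fold change of -0.25 (SE 0.0873, adjusted p = 0.0953), DNAJC6 (auxilin, for uncoating of clathrin vesicles) with -0.32 (SE 0.126, adjusted p = 0.137), and DNAJC11 of the mitochondrial outer membrane with -0.19 (SE 0.0933, adjusted p = 0.227). The higher ones included DNAJC22 with 0.20 (SE 0.0897, adjusted p = 0.18), the endosomal DNAJC13 with 0.15 (SE 0.072, adjusted p = 0.217) and DNAJC10, a reductase of the endoplasmic reticulum, with 0.17 (SE 0.0866, adjusted p = 0.251). The DNAJC17 locus overlaps ZFYVE19, which has a higher mean count. Over all members, 32 of the 61 tested overlap another locus with reads.

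The range of levels was wide. Divided by the length of the longest coding transcript, the control mean was 84680 normalized reads per kilobase for HSP90AB1, 74900 for HSPA8 and 62760 for HSP90AA1, followed by HSPE1 (21900), HSPD1 (18590) and DNAJA1 (13820). After SAM68 depletion the same per-kilobase levels were 82580, 65480 and 50160 for the first 3, in the same order. At the other end were DNAJC12 (17.5 in controls and 33.0 after depletion), HSPB9, named after its values were seen (7.34 and 6.495) and DNAJC15 (4.10 and 5.26). These ranks depend on the length used. The count of the locus that joins HSPE1 with MOB4 was divided by an HSPE1 transcript of 950 bases. DNAJC15 came last after division by 7853 bases, although its control mean (32.2 reads) was above those of DNAJC12 (21.1) and HSPB9 (14.1). The median absolute log2 fold change was 0.07 for the 18 members with a mean over 10000 normalized reads, 0.14 for the 23 between 1000 and 10000, 0.20 for the 17 between 100 and 1000 and 0.51 for the 3 between 10 and 100, so that the size of a change was read beside its standard error. The members took between 1.60% and 1.67% of the reads of control libraries and 1.47%, 1.28% and 1.55% of those of si-SAM68 replicates 1, 2 and 3; the second of these is the library in which the ribosomal locus took 15.1%.

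**Figure D4:**
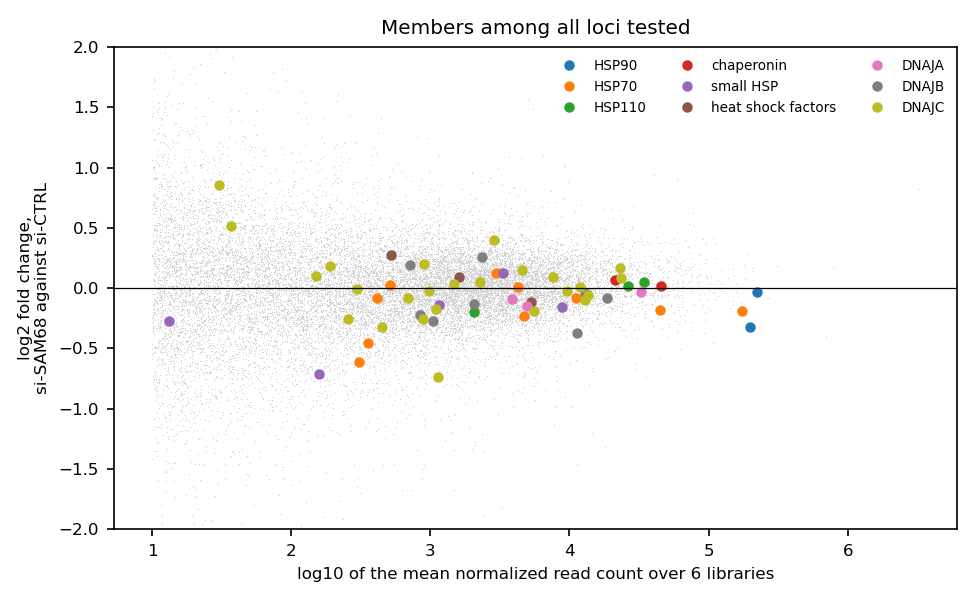
Log2 fold change, si-SAM68 against si-CTRL (y axis, cut at -2 and 2), against the log10 of the mean normalized read count over 6 libraries (x axis, a log scale), for all loci tested (grey) and the members (coloured by class). The members span the range of levels, and those with the largest change lie at low and middle counts.

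Heat shock element letters were more frequent among the members' promoters than among promoters at large, and the members with them were mostly on the lower side. RefSeq promoters of 300 bases (250 before and 50 after the start of transcription) were found for 55 of the 61 tested members, and not for DNAJC22, DNAJC1, DNAJC24, HSPB11, HSF1 and HSPA14. The 2-unit form was searched on both strands, each form being its own reverse complement, and the 3-unit forms contain it. It was present in 19 of the 55 members (34.5%) and in 13.6% of all tested genes with a promoter, where any promoter of a gene counts. Counted per promoter, it was in 20 of the 74 promoters of these members (27.0%), against 13.5% of all 35116 promoters. The 3-unit form was present in 7 members (12.7%), against 0.495% of tested genes: HSP90AA1, HSP90AB1, HSPA6, HSPA8, HSPD1, DNAJA1 and DNAJB6. Per promoter the share was 9.46% for the members, against 0.49% of all promoters. By class, the 2-unit form was in both HSP90 genes, 6 of 9 HSP70 genes, 3 of 4 small heat shock protein genes and 2 of 22 DNAJC genes. HSPA1A and HSPA1L are transcribed in opposite directions and share the element printed above. The letters CCAAT, another element of these promoters, were in 38.2% of members and 42.7% of tested genes.

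Of the 19 members with the 2-unit letters, 16 had a log2 fold change below 0 and 3 above, with a median of -0.16. Of the 36 without them, 17 were below 0 and 19 above, with a median of 0.01. Among all tested genes the shares below 0 were 50.8% with and 51.8% without the letters, and the medians were -0.01 in both. The difference between the medians of members with and without the letters was -0.16, and when single libraries were left out it lay between -0.18 and -0.10, the smallest being without si-CTRL replicate 3. With the 3-unit form in place of the 2-unit form the difference was 0.002, since 6 of the 7 members were below 0 but most by little, their median being -0.04. Among all 55 tested genes with the 3-unit form, 60% were below 0, and their median was also -0.04. Beyond HSPA6, HSP90AA1 and HSPB6, no member with the 2-unit letters had an adjusted p under 0.05. A match of letters is not a bound site, and binding was not measured here.

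**Figure D5:**
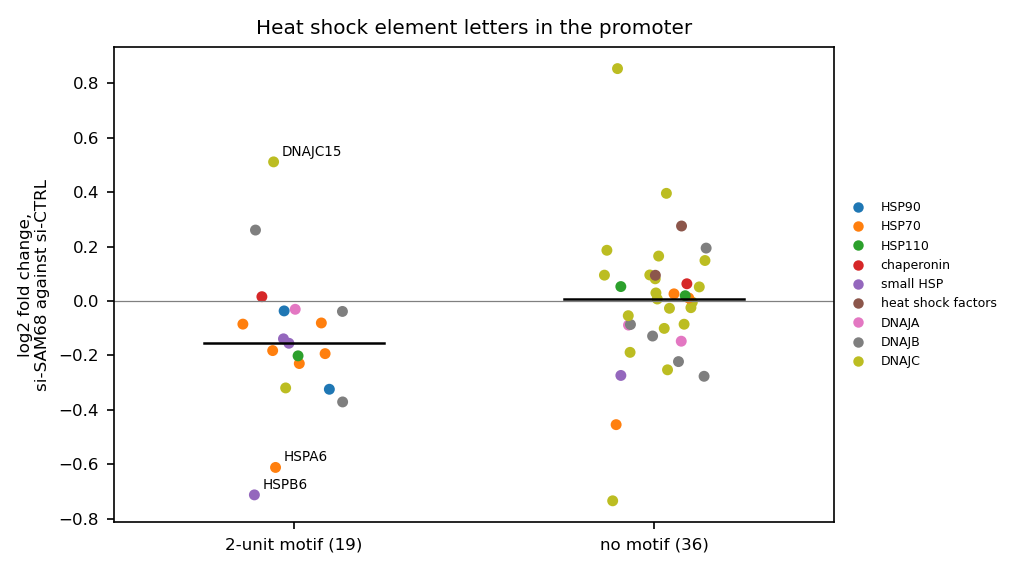
Log2 fold change, si-SAM68 against si-CTRL (y axis), of the 19 members with the 2-unit heat shock element letters in a promoter and of the 36 without (x axis, points spread sideways for legibility and coloured by class); horizontal lines are medians (-0.16 and 0.01). With the letters, 16 of 19 points lie below 0, and without them 17 of 36.

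Partner genes of the chaperones had values below 0 more often than above, and none was called higher. Of 60 genes listed as exchange factors, HSP90 partners, CCT chaperonin, prefoldin, heat shock regulators and the excluded genes of the endoplasmic reticulum, 59 were tested (CRYAB was not analysed here), and 43 (72.9%, against 49.1% of all loci) had a log2 fold change below 0, with a median of -0.08. At the study's thresholds 2 were called, both lower (3.39%, against 7.67% of all loci in either direction and 4.83% lower). At an adjusted p under 0.05 there were 7, all lower (11.9% of the 59, against 6.23% of all loci called lower). None was called higher, against 4.47% of all loci. At this adjusted p the share called without regard to direction lay near that of all loci (11.9% against 10.7%). At the study's thresholds the share called lower was not above that of all loci (3.39% against 4.83%). The 7 became 3 when si-SAM68 replicate 1 was left out, 2 when si-SAM68 replicate 2 or si-SAM68 replicate 3 was, and 10 when si-CTRL replicate 1 was. The 2 called at the study's thresholds became 1 without si-CTRL replicate 1, si-SAM68 replicate 2 or si-SAM68 replicate 3.

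The 2 partners below an adjusted p of 0.05 in every alternative fit were DNAJC3 and FKBP4. DNAJC3, a co-chaperone of the endoplasmic reticulum that also inhibits the kinase PERK, had 1986, 2135 and 2331 normalized reads in controls and 1018, 1377 and 1228 after depletion (log2 fold change -0.84, SE 0.118, adjusted p = 0.00288). FKBP4, the HSP90 partner FKBP52, had 17475, 16510 and 16138 against 11931, 12088 and 12241 (log2 fold change -0.47, SE 0.0689, adjusted p = 0.00356). In both genes every si-SAM68 library lay below every control.

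The other 5 partners with an adjusted p under 0.05 were of several kinds. BAG3, which links HSP70 to autophagy, had 3076, 2404 and 2501 normalized reads against 2010, 1694 and 1607 (log2 fold change -0.59, SE 0.118, adjusted p = 0.0147). BAG6, which guides tail-anchored and defective proteins, had 30831, 23872 and 22877 against 19470, 17476 and 17581 (log2 fold change -0.50, SE 0.112, adjusted p = 0.0223). CCT7 of the cytosolic chaperonin had a log2 fold change of -0.40 (SE 0.0924, adjusted p = 0.0235), the mitochondrial protease LONP1 of -0.28 (SE 0.0697, adjusted p = 0.0322) and GRPEL1, the exchange factor of mitochondrial HSP70, of -0.27 (SE 0.0697, adjusted p = 0.0368). Without si-SAM68 replicate 2 the adjusted p of these 5 was between 0.0607 (BAG3) and 0.167 (GRPEL1), and without si-SAM68 replicate 3 between 0.0834 (BAG3) and 0.129 (LONP1). Leaving out si-SAM68 replicate 1 ended the calls of BAG6 (0.0551), CCT7 (0.0743), LONP1 (0.0675) and GRPEL1 (0.0886), and leaving out si-CTRL replicate 2 or 3 those of LONP1 (0.0879 and 0.0912) and GRPEL1 (0.0902 and 0.111). LONP1 and GRPEL1 were also not called with the replicate block (0.0529 and 0.0595) or without a filter on low values (0.0571 and 0.0558).

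The 11 members under the minimum mean were almost silent in these cells. HSPB3 and the locus that joins HSPB2 with C11orf52 had no read in any library. DNAJB13 lay between 0.969 and 6.70 normalized reads, HSF5 between 0 and 5.52 and HSPA7 between 0 and 3.02, while HSPB7, DNAJA4, DNAJB3, HSPA12B, DNAJB8 and DNAJB7 reached at most 3.87.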

How the data were processed

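Polyadenylated RNA was sequenced from 6 libraries, made with a stranded kit per the labels. The authors deposited, for each FAST DB locus, a signal, the read count divided by DESeq2's size factor. The submitters' processing notes name STAR 2.4.0 and hg19; the use of strand in counting is not given in the sources used here, so overlapping loci and paralogs may share reads. Whole reads were recovered for 100% of the values (tolerance 0.01 read).

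Groups came from the labels. Values were tested with limma 3.58.1 in R 4.3.3 (lmFit, trended eBayes) as log2(normalized read count + 1), without a replicate block, on the 18849 loci whose mean reached 10. Fold changes are on that scale, p-values were adjusted by Benjamini-Hochberg across all of these loci, and intervals are 95%. Ratios were tested with exact permutation (scipy 1.17.1). Pairing was checked by correlating deviations from group means: same-numbered libraries gave 0.105, 0.231 and 0.125, others -0.125 to 0.00687. Deviations cancel within a group, so positive values for same-numbered libraries pull the others down, and the others are not separate support. The libraries may be paired by number, but this check cannot decide it. The main fit leaves pairing out, and the blocked fit, whose changed calls are given below, is an alternative. Further alternatives were pseudocounts, filters, TMM and quantile scaling, single libraries left out, and edgeR 4.0.16 and DESeq2 1.42.0 on the recovered reads, which called 1498 and 1334 loci at the study's thresholds, against 1445 (DESeq2 gave no adjusted p for 2209). The scripts were tested on simulated data.

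Named by rule were KHDRBS1, every called member, the most abundant member of each class, HSF1, HSF2, HSPA1A, HSPA1B, HSPD1, HSPE1, members under the minimum with a mean of at least 1, and called partners; leaving out single libraries for the promoter and direction counts, and a paired test of the ratios, were added after seeing the data. The members and lists were chosen with earlier results of these data known. A planned search for the J-domain tripeptide was not run. The precision is limited by 3 libraries per group.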

Additional observations from a re-analysis of the deposited data

How the results depend on the processing

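For the members, the count at the study's thresholds (4) was 0 at a fold change of at least 2. Its higher part (1) was 2 without a filter and 0 at a minimum mean of 50. The count with an adjusted p under 0.05 (5, of which 1 higher and 4 lower) was 3 without a filter, with 2 lower, and 8 in DESeq2, with 2 higher. The 2 partners called at the study's thresholds became 1 with a pseudocount of 5, with TMM scaling and in edgeR. The promoter difference of -0.16 was 0.002029 with the 3-unit form. Under quantile normalization the log2 fold changes of HSPD1 and HSPA4 turned to -0.0212 and -0.0151.

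With single libraries left out, the members called at the study's thresholds ranged from 2 to 4 (higher 0 to 2, lower 1 to 3), those with an adjusted p under 0.05 from 1 to 6 (higher 0 to 2, lower 1 to 4), and the partners from 1 to 2 and from 2 to 10. The median of the members ranged from -0.0755 to -0.0208, their number below 0 from 33 to 40, and the promoter difference from -0.1794 to -0.09809. In the same fits the log2 fold change changed sign for HSPD1 (-0.0927 to 0.0847), HSPA4 (-0.0333 to 0.0597), DNAJB11 (-0.166 to 0.0033), DNAJC9 (-0.013 to 0.133) and DNAJB6 (-0.124 to 0.0864), none of which passed a test.

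With the replicate number as a block, 5 members had an adjusted p under 0.05 and 4 passed the study's thresholds, as without it, although HSP90AA1 was lost (adjusted p = 0.0694) and DNAJB1 gained (0.0375). Of the partners, 5 had an adjusted p under 0.05 in place of 7, LONP1 (0.0529) and GRPEL1 (0.0595) being lost. The block changed the call of no other member or partner named above. The cause of these changes was not tested. With 3 libraries in each group, the values of low-count members such as DNAJC12 and DNAJC15 had the larger standard errors (0.272 and 0.385).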
